A study of Mus musculus with 36 samples.

Results

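The 7 genes described here encode the myosin heavy and light chains of heart muscle: Myh6, Myh7, Myh7b, Myl2, Myl3, Myl4 and Myl7. They were chosen by name, with earlier results of these data known, and all 7 were found among the 20720 nuclear genes of the tables. Single cells from the mouse heart were sorted into multi-well plates and sequenced by SORT-seq, which counts 3' tags of poly(A) RNA with unique molecular identifiers (UMIs). All mice were labelled as male C57BL/6 of 8 weeks, and the tissue was the infarcted region of the left ventricle or the matching region of sham hearts. Sham surgery was followed for 1 day (4 plates) or 14 days (8 plates). Ischemia-reperfusion (IR), a 1-hour ligation of the left anterior descending artery, was followed for 1 day (9 plates), 3 days (7 plates) or 14 days (3 plates). Myocardial infarction (MI), a permanent ligation of the same artery, was followed for 3 days (5 plates) and has no sham group of its own day in the labels. No genetic modification or other agent is named for any group.

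The myosin motor of the sarcomere consists of a pair of heavy chains, each carrying an essential and a regulatory light chain. In the adult mouse ventricle the fast alpha heavy chain (Myh6) prevails over the slow beta heavy chain (Myh7), which prevails before birth and returns in the stressed heart. Myl2 and Myl3 are the ventricular regulatory and essential light chains, Myl7 and Myl4 their atrial counterparts, and Myh7b is a further, slow-type heavy chain gene expressed at a low level in heart and skeletal muscle.

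The 3 heavy chain genes each carry a microRNA in an intron, so the same primary transcript holds a motor and a regulator. The mature strands are shown because they tie the 3 genes together in sequence. They were not measured here. Sequences are from RefSeq (GRCm38.p6), with the seed (bases 2 to 8) in capitals. Those of the Myh6 and Myh7 introns share 1 seed, and that of Myh7b differs from it in the last base.
mmu-miR-208a-3p, intron 29 of 38 of Myh6, chr14:54949072-54949093, minus strand: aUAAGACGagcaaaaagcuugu
mmu-miR-208b-3p, intron 31 of 40 of Myh7, chr14:54975710-54975731, minus strand: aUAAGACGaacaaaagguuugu
mmu-miR-499-5p, intron 19 of 41 of Myh7b, chr2:155622893-155622913, plus strand: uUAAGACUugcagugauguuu

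Myh6 (chr14:54941921-54966927) and Myh7 (chr14:54970684-54994626) lie 3756 bases apart on the minus strand of GRCm38. Their promoters (250 bases before to 50 bases after the first RefSeq start) are shown because the 2 genes sit side by side and were called in opposite directions at IR day 3. No assay here read these windows. Each holds 1 copy of the letters GGAATG, the core of the MCAT element, at 206 and 201 bases before the start, and that of Myh6 also holds TATAAA from base 1 after the start. Both motifs are in capitals. Myh7 has a second RefSeq start, whose window holds neither.
Myh6, chr14:54966558-54966857, minus strand: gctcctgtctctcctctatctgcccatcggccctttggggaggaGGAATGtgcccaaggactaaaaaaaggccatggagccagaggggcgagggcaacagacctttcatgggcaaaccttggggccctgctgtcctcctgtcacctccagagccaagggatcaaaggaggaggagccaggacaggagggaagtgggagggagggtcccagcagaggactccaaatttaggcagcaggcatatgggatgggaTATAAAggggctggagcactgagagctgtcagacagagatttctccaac
Myh7, chr14:54994577-54994876, minus strand: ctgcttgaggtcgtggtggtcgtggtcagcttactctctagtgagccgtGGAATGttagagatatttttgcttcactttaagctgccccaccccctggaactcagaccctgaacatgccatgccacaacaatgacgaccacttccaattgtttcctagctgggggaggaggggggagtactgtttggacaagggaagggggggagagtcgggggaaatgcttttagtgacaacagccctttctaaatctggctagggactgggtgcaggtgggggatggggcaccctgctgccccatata
Searched on both strands, GGAATG occurs in 14.7% and TATAAA in 13.6% of all 32851 RefSeq promoters of this length.

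Myh6 and Myh7 are near-identical in places. Of the 50-base words in the last 300 bases of the Myh6 transcript, where 3' tags come from, 49.4% also occur in Myh7, against 0% for Myl3 with Myl4, Myl2 with Myl7, and Myh7b with either. How reads that match both were assigned is not given in the sources used here, so a small Myh7 count beside a large Myh6 count carries that uncertainty. The antisense gene Mhrt overlaps Myh7, and reads of the 2 cannot be told apart unless strand was used in counting. Myh7b lies on chromosome 2 (155611212 to 155634307), Myl2 on chromosome 5 (122100951 to 122113472), Myl3 on chromosome 9 (110741861 to 110769798), and Myl4 and Myl7 on chromosome 11 (104550663 to 104595753 and 5896637 to 5898782).

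Over all 13824 wells the tables hold 110110 UMIs of Myh6, 60688 of Myl2, 34725 of Myl3, 2463 of Myh7, 463 of Myh7b, 117 of Myl4 and 86 of Myl7. A UMI stands for 1 transcript's 3' end and is not divided by length, so these numbers can be compared between genes only as tags. Plate totals ran from 176614 to 5551870 UMIs, and 3146 wells had at least 1000 nuclear UMIs and were taken as cells. Cells were clustered without the 7 myosin genes, and 4 clusters were called cardiomyocyte-like from 12 markers, none of them 1 of the 7 genes and all detected in every group. Day 14 sham replicates 2 and 7 were counted as 1 sample: their well totals correlated at a Spearman rho of 0.911, against at most 0.650 for any other pair of plates. Of the deeper wells, 43 of 77 in replicate 7 and 35 of 97 in replicate 2 matched a still deeper well at the same place in the other table. They were averaged in the tests and entered pooled counts once (as replicate 7), which leaves 1113 cardiomyocyte-like wells. Few of these came from IR day 1 (31 wells) and MI (19 wells), while sham day 1 gave 234, sham day 14 gave 207, IR day 3 gave 282 and IR day 14 gave 340. The 19 MI wells stand apart: their median was 8820 UMIs with 5.23% mitochondrial tags and 4.01% Rn45s, against medians of 1985 to 2502.5 UMIs, 71.6% to 81.2% mitochondrial tags and 18.4% to 25.4% Rn45s in the other groups. The MI plates also carry a separate protocol text, so batch and surgery cannot be told apart for them. Nothing in the labels ties plates to mice, and p-values measure the spread between plates, some of which may share a mouse.

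The cardiomyocyte-like wells held most of the ventricular myosin UMIs without having been selected on them. Of all UMIs in cells, they held 88.4% for Myh6, 90.1% for Myh7, 94.3% for Myh7b, 80.5% for Myl2 and 83.7% for Myl3. Thinned to 1000 UMIs each, 98.3% of the 1113 wells had a Myh6 UMI, 97.8% a Myl2 UMI, 95.3% a Myl3 UMI, 19.8% a Myh7 UMI and 4.13% a Myh7b UMI. Endothelial-like wells, which should lack these genes, had a Myh6 UMI in 50.4% and a Myh7 UMI in 3.19% of 407 wells at the same depth (median before thinning 3641 UMIs, against 2303 in cardiomyocyte-like wells). In macrophage-like wells (median 12197 UMIs) these shares were 9.76% and 0.80% of 625. A single Myh6 or light chain UMI in a well is therefore read as background, and levels are compared instead. Pooled Myh6 stood at 16533 CPM (UMIs of a gene scaled to the UMI total of its library) in cardiomyocyte-like, 1409 CPM in endothelial-like and 81.6 CPM in macrophage-like wells.

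**Figure D1:**
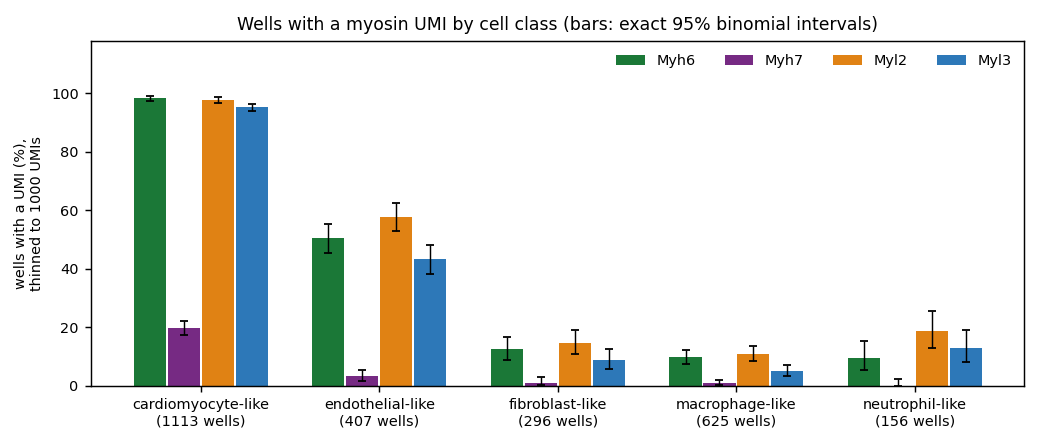
Percent of wells with at least 1 UMI (y axis) after thinning each well to 1000 UMIs, for Myh6, Myh7, Myl2 and Myl3 in 5 cell classes (x axis), with exact 95% binomial intervals that cover counting error only. Myh6, Myl2 and Myl3 were in 95.3% to 98.3% of cardiomyocyte-like wells, and Myh7 in 19.8%.

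Tests between groups used UMIs summed over the cardiomyocyte-like wells of a plate, in plates with at least 5 such wells. That left 4 plates at day 1 and 5 plates at day 14 of sham. IR kept 3 plates at day 1, 5 plates at day 3 and 3 plates at day 14, and MI kept 2. In all, 4278 genes were tested by edgeR's quasi-likelihood test with Benjamini-Hochberg adjustment and a threshold of 0.05. Day 3 groups were set against the mean of both sham days, since no day 3 sham plates are in the labels. The groups were spread unequally over the 4 clusters: MI lay in cluster 4 alone, and IR day 1 had 0 wells in cluster 1. Cluster 4, which Sprr1a, Nmrk2 and Nppa lead, held all 19 wells from MI, 24 of 31 from IR day 1 and 158 of 282 from IR day 3. It held 5 of 234 from sham day 1, 2 of 207 from sham day 14 and 17 of 340 from IR day 14.

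Of the 7 genes, 5 passed the filter on low counts, and Myl4 and Myl7 did not. Set beside all genes tested, 3 of the 5 were lower and 0 higher at IR day 1 (9.02% of all genes were lower and 3.76% higher), and 2 were lower and 1 higher at IR day 3 (2.06% and 4.23%). In MI against sham 3 were lower and 0 higher (21.9% and 14.0%), and in MI against IR of day 3 again 3 and 0 (15.7% and 7.34%). At IR day 14 against sham 1 was higher and 0 lower (0.187% and 0.0234%), and at IR day 14 against IR day 3 there were 2 higher and 0 lower (0.912% and 2.55%). Between the sham days 1 was lower and 0 higher (0.725% and 0.0701%). The split of all calls moved with the scaling: at IR day 1 there were 161 genes higher and 386 lower here but 323 and 128 with RLE, at IR day 3 181 and 88 but 245 and 65, and in MI 601 and 938 but 809 and 766.

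Myh6, the alpha heavy chain, was lower after injury at days 1 and 3 and stood at the sham level at day 14 of IR. In the plates of sham day 1 it measured 25070.1, 11336, 18346 and 14763 CPM, and in those of sham day 14 it measured 23897, 24808, 13941, 20534 and 13936 CPM. The IR day 1 plates measured 3981, 5648 and 2886 CPM, and the IR day 3 plates 2416, 13054, 9095, 15985 and 7102 CPM. The IR day 14 plates measured 21521, 27706 and 16573 CPM and the MI plates 1343 and 2059.6 CPM. All IR day 1 and MI plates thus lay below every sham plate, while IR day 3 overlapped sham and IR day 14 lay within or above it. MI plates with only 2 or 3 wells, which were left out of the tests, had 1585, 419 and 469 CPM, also below every sham plate. The IR day 1 plates with 2 wells each, likewise left out, had 11649.6 and 407 CPM, of which the first lies within the sham range. IR day 3 replicate 1, also with 2 wells, had 14025 CPM, within the sham range.

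At day 1 of IR, Myh6 was 6.70-fold lower than in sham of the same day (log2 fold change −2.75 ± 0.54 SE, adjusted p = 1.5e-04 by edgeR), in a comparison that called 12.8% of all genes and shifted the median gene by −0.57. Relative to that median the change was −2.17. With RLE scaling of the libraries the fold was 4.10 (log2 −2.04, adjusted p = 8.7e-04) and the median gene stood at 0.08, so relative to the median Myh6 was at −2.12. At day 3 of IR it was 2.36-fold lower than in sham (log2 −1.24 ± 0.37, adjusted p = 0.024, with 6.29% of genes called), a call that was lost without IR day 3 replicate 5 or 7 (adjusted p = 0.061 and 0.086), sham day 14 replicate 1 (0.064) or sham day 1 replicate 1 (0.077). Against sham day 14 alone it was −1.21 (adjusted p = 0.078), not past the threshold. In MI it was 18.4-fold lower (log2 −4.20 ± 0.67, adjusted p = 4.6e-07), in a comparison that called 36.0% of all genes and had a median of −0.23. At day 14 the IR and sham plates differed by 0.24 ± 0.46 (adjusted p = 0.999, with 0.210% of genes called).

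Between the injured groups, Myh6 was lower in MI than in IR of day 3 (log2 −2.96 ± 0.64, adjusted p = 2.8e-04, with 23.0% of genes called and a median of −0.27), and without MI replicate 2 the adjusted p was 0.118. It was higher at day 14 than at day 3 of IR (log2 1.45 ± 0.45, adjusted p = 0.049, with 3.46% of genes called), with no overlap between the plates. That call was lost when any of 6 of the 8 plates was left out: IR day 14 replicate 1, 2 or 3 (adjusted p = 0.121, 0.346 and 0.059) or IR day 3 replicate 3, 5 or 7 (0.059, 0.094 and 0.101).

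**Figure D2:**
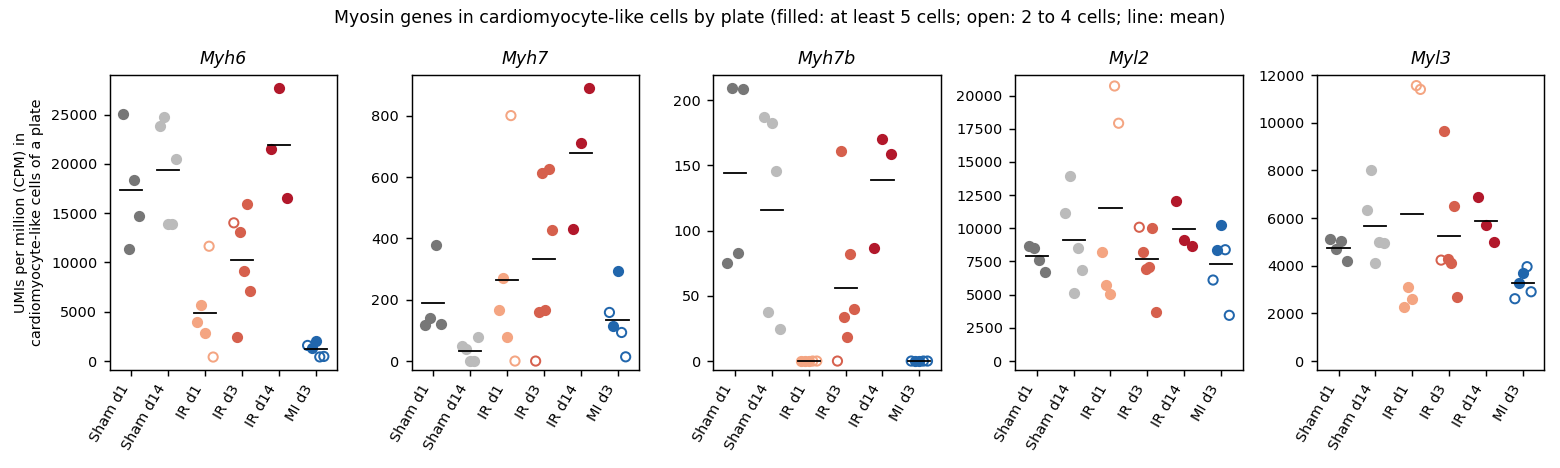
CPM in the cardiomyocyte-like cells of each plate (y axis, linear, 1 scale per gene) by group (x axis) for 5 myosin genes, with filled points for plates of at least 5 cells, open points for plates of 2 to 4 cells, and a line at the mean of the points shown. Myh6 fell below every sham plate in MI, Myh7 at IR day 14 lay above every sham plate, and Myh7b had no UMI at IR day 1 or in MI.

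Myh7, the beta heavy chain, rose in IR at day 3 and day 14. It measured 119, 141, 378 and 122 CPM in the sham day 1 plates, and 48.9, 37.8, 0, 79.4 and 0 CPM in the sham day 14 plates. The IR day 1 plates measured 166, 272 and 79.4 CPM, the IR day 3 plates 161, 613, 166, 626 and 428 CPM, the IR day 14 plates 430.4, 711 and 889.8 CPM, and the MI plates 114 and 294 CPM. Every IR day 14 plate lay above every sham plate of either day, and these IR day 3 plates overlapped those of sham day 1 only. IR day 3 replicate 1, with 2 wells and left out of the tests, had 0 CPM. In IR day 14 replicate 2, however, 1 well of 5562 UMIs held 144 of the 192 Myh7 UMIs, and in sham day 1 replicate 3 a well of 19686 UMIs held 51 of 100. Without the well richest in Myh7 of each plate, a step chosen after seeing the data, the IR day 14 plates measured 348, 181 and 784 CPM and those of sham day 1 97.4, 103, 199.998 and 98.1 CPM. Replicate 2 of IR day 14 then lay within the range of sham day 1, and all 3 stayed above sham day 14, where no plate passed 64.0 CPM.

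The sham groups differed from each other in Myh7: day 14 was lower than day 1 (log2 −2.54 ± 0.49, adjusted p = 6.6e-04), with no overlap, in a comparison that called 0.795% of genes. Without sham day 1 replicate 3, the highest plate, the difference was −1.94 (adjusted p = 0.059). At day 14 Myh7 was 18.7-fold higher in IR than in sham (log2 4.22 ± 0.48, adjusted p = 3.4e-10), as 1 of 9 genes called, and it kept its call without any single plate (adjusted p 2.6e-11 to 4.9e-08). Without the well richest in Myh7 of each plate it was 4.23 (adjusted p = 2.6e-10). Set against sham day 1 instead, the difference was 1.69 (adjusted p = 0.030).

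At day 3 of IR, Myh7 was 4.43-fold higher than the mean of both sham days (log2 2.15 ± 0.34, adjusted p = 1.2e-06). Against sham day 1 alone it was 0.88 (adjusted p = 0.155), and against sham day 14 alone 3.42 (adjusted p = 5.0e-08). Without the well richest in Myh7 of each plate it was 2.43 against both (adjusted p = 3.3e-08). In MI the difference from sham was 0.41 ± 0.56 (adjusted p = 0.590), −0.85 (0.245) against sham day 1 alone and 1.68 (0.046) against sham day 14 alone. At day 1 of IR it was −0.92 ± 0.62 (adjusted p = 0.331), or −0.35 relative to the median gene at −0.57. Other settings gave −8.47 to −0.19 there, and none called it. Between days 14 and 3 of IR the Myh7 difference was 0.81 ± 0.37 (adjusted p = 0.301). Myh7 was lower in MI than in IR of day 3 (−1.73 ± 0.56, adjusted p = 0.018), a call lost without MI replicate 2 or 3 (0.407 and 0.075) or IR day 3 replicate 4 or 7 (0.124 and 0.063).

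Markers of other cell classes were present in the same wells and differed between groups. The summed level of 10 fibroblast markers ran from 292 to 3589 CPM in the IR day 3 plates, where none of the 10 was at 0, and from 678 to 1876 CPM at IR day 14. It ran from 294 to 1152 CPM at sham day 1, 281 to 772 CPM at sham day 14, 0 to 3530 CPM at IR day 1 and 476 to 2309 CPM in MI, and Tcf21 was at 0 in all groups but IR day 3. The 9 macrophage markers summed to 240.3 to 1566 CPM at IR day 3, to 29.6 to 70.7 CPM at IR day 14 and to at most 147 CPM in sham. They summed to 0 to 1138 CPM at IR day 1 and to 190 to 543 CPM in MI. Wells with over 0.2% of their UMIs from markers of other classes were then left out, and wells kept could still carry some. Myh7 was still higher at IR day 3 (log2 2.00, adjusted p = 9.1e-05) and at IR day 14 (log2 4.10, adjusted p = 8.3e-11). The same step ended 7 other calls. Of these, 4 kept a fold change of about the same size or a larger one: Myh6 at IR day 3 (−1.22, adjusted p = 0.081) and between IR days 14 and 3 (1.45, 0.119), Myh7 in MI against IR (−2.001, 0.090), and Myl3 in MI against sham (−1.40, 0.103). The other 3 were smaller, with Myh7 at −1.78 between the sham days (0.085, from −2.54) and Myh7b at −1.62 at IR day 3 (0.070, from −1.84). Myh7b in MI against IR, with 0 UMIs in MI, had an adjusted p of 0.185.

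**Figure D3:**
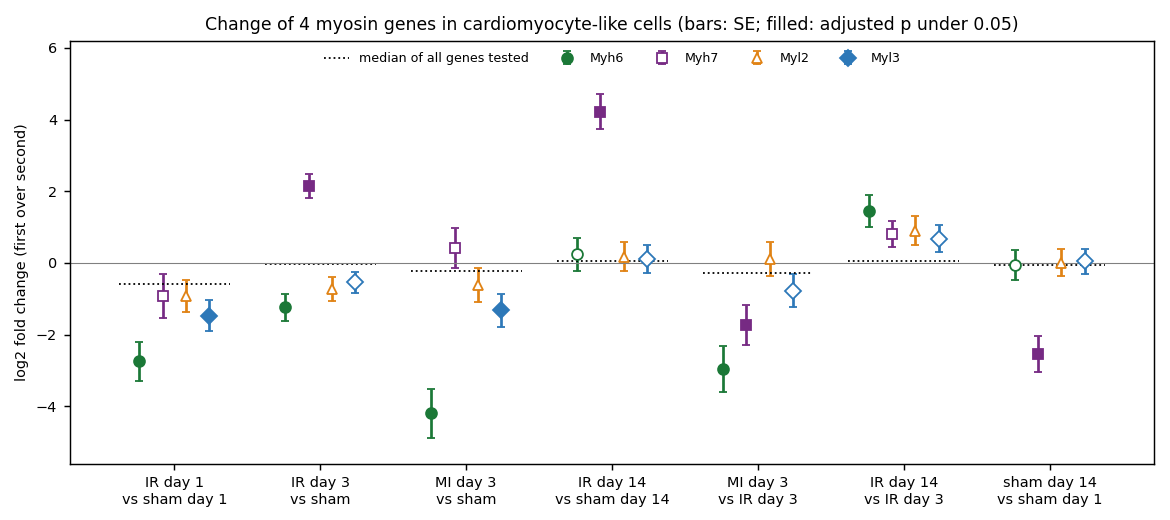
Log2 fold change (y axis) of Myh6, Myh7, Myl2 and Myl3 in the 7 comparisons (x axis) with SE bars, filled where the edgeR adjusted p was under 0.05, and a dotted line at the median of all genes tested. Myh6 fell by 2.75 at IR day 1 and fell by 4.20 in MI, and Myh7 rose by 2.15 at IR day 3 and by 4.22 at IR day 14. Myh7b is left out because it had no UMI in 2 groups.

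The share of Myh7 among Myh6 and Myh7 UMIs does not depend on how a library is scaled. It was 0.470%, 1.23%, 2.02% and 0.822% in the sham day 1 plates (mean 1.14% ± 0.67 SD, n = 4) and 0.204%, 0.152%, 0%, 0.391% and 0% in the sham day 14 plates (0.150% ± 0.163, n = 5). It was 4.00%, 4.59%, 2.68% and 6.43% at IR day 1 (4.42% ± 1.56, n = 4), and 0%, 4.49%, 1.80%, 3.77% and 5.68% at IR day 3 (3.15% ± 2.26, n = 5). It was 1.96%, 2.50% and 5.10% at IR day 14 (3.19% ± 1.68, n = 3), and 9.09%, 7.83%, 12.5% and 2.86% in MI (8.07% ± 4.00, n = 4). Plates of at least 2 cells and 20 heavy chain UMIs entered, and the MI shares rest on only 22 to 115 UMIs each. Without the well richest in Myh7 of each plate the IR day 14 shares were 1.57%, 0.679% and 4.50%, so that of replicate 2 lay within the range of sham day 1 and above every sham day 14 plate. IR day 1 replicates 1 to 3 then had 1.32%, 1.37% and 0.943%, against 0.387% to 1.09% at sham day 1. MI replicates 2, 3 and 5 had 5.43%, 0% and 0%, the last 2 from 21 and 24 UMIs. IR day 1 replicate 4 and MI replicate 1 kept under 20 heavy chain UMIs. In MI replicate 3 all 13 Myh7 UMIs came from 1 well.

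With all wells counted, every IR day 1, IR day 14 and MI plate lay above every plate of the sham group it was set against. Without the well richest in Myh7 of each plate, IR day 1 overlapped sham day 1 and MI replicates 3 and 5 stood at 0%. IR day 14 stayed above sham day 14. The tests that follow used all wells. The exact two-sided permutation tests gave p = 0.0286 for IR day 1, 0.0357 for IR day 14, 0.0028 for MI and 0.0159 between the sham days, each the smallest the design allows, and 0.0200 for IR day 3. Adjusted over 21 share comparisons these became 0.150, 0.150, 0.0587, 0.140 and 0.140, so none passed the threshold. The 21 include the Myl7 and Myl4 shares, which were 0 in most plates and made the adjustment stricter. Since most of these p were already the smallest possible, missing the threshold does not show that the groups were alike. The exact p was 0.0635 for MI against IR of day 3 and 1.00 between days 14 and 3 of IR (adjusted 0.222 and 1.00). In the 3 IR day 1 plates of at least 5 wells, Myh7 CPM overlapped sham day 1 and Myh6 CPM lay below it. In replicate 4, with 2 wells and the highest share of that group, Myh7 stood at 800.4 CPM, above every sham plate, and Myh6 within the sham range.

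**Figure D4:**
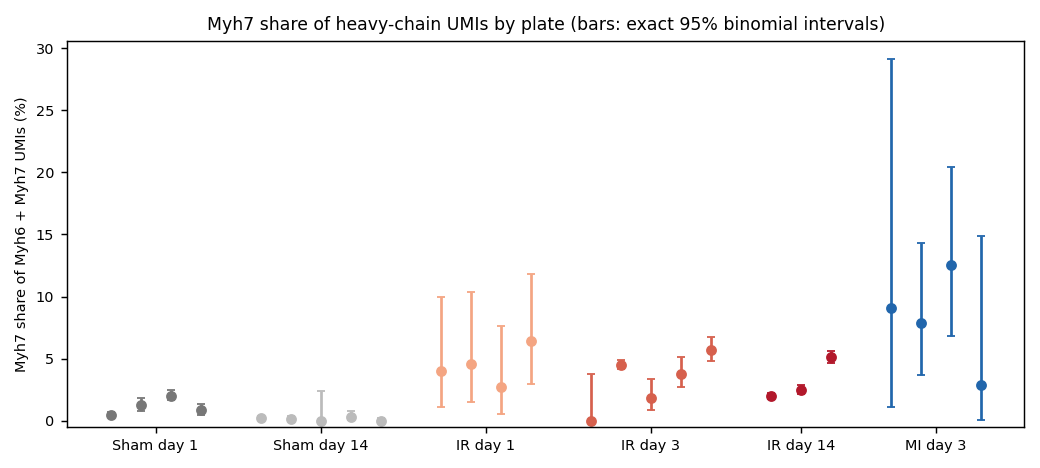
Myh7 as a percent of Myh6 plus Myh7 UMIs in cardiomyocyte-like cells (y axis), 1 point per plate with an exact 95% binomial interval (counting error only), by group (x axis), without sham day 14 replicate 2. The shares were 0% to 2.02% in sham plates, 1.96% to 5.10% at IR day 14 and 2.86% to 12.5% in MI.

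In single wells, Myh7 was found beside Myh6. Without thinning, 382 of the 1113 wells had a Myh7 UMI and 381 of these also had Myh6, with 1 well holding Myh7 alone and 5 holding neither. Among the wells without Myh7, 99.3% had Myh6, so nearly every well held Myh6 either way. Still without thinning, Myh6 was found in 16 of 19 wells of MI, 29 of 31 of IR day 1 and 281 of 282 of IR day 3, and in all wells of the other groups. The MI wells were the deepest, with a median of 8820 UMIs. Thinned to 1000 UMIs, Myh6 was found in 11 of 19 wells of MI and 28 of 31 of IR day 1. At IR day 3 it was then found in 276 of 282.

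The share of wells with a Myh7 UMI at 1000 UMIs per well was 13.3%, 11.1%, 20.8% and 8.82% in the sham day 1 plates and 2.44%, 5.26%, 0%, 4.00% and 0% in the sham day 14 plates. It was 0%, 20%, 36.6%, 18.8%, 31.2% and 23.5% at IR day 3, and 21.5%, 15.9% and 42.4% at IR day 14. The sham day 14 mean was 2.34%, and endothelial-like wells pooled over all groups stood at 3.19%. That pool includes IR days 3 and 14, where endothelial-like wells averaged 164 and 92.8 CPM of Myh7. Within sham day 14, Myh7 averaged 33.2 ± 33.9 CPM (SD, n = 5) in cardiomyocyte-like and 25.5 ± 18.3 CPM (n = 4) in endothelial-like wells. A share as low as that of sham day 14 thus cannot be told apart from background. Exact two-sided permutation tests gave p = 0.0192 for IR day 3, 0.0357 for IR day 14 and 0.0159 between the sham days (adjusted over 7 comparisons 0.067, 0.083 and 0.067). At IR day 1 and in MI, with 2 to 12 wells a plate, the means were 17.3% ± 20.5 (SD, n = 5) and 13.3% ± 21.7 (n = 5), and the exact p was 0.857 and 0.536 (adjusted 0.857 and 0.722).

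Wells with at least 10 heavy chain UMIs show how unevenly Myh7 was spread. Myh7 was at 0 in 71.4% of 224 such wells at sham day 1, 91.9% of 185 at sham day 14, 39.9% of 228 at IR day 3 and 59.2% of 336 at IR day 14. A Myh7 share of 10% or more was found in 1.79% of these wells at sham day 1, 0% at sham day 14, 17.1% at IR day 3 and 8.93% at IR day 14, and in 2 of 13 wells at IR day 1 and 5 of 8 in MI. The tenth of wells with the most Myh7 held 80.2% of 895 Myh7 UMIs at IR day 14 (34 wells, 1 of them with 144), 53.1% of 689 at IR day 3 (23 wells), 75.1% of 173 at sham day 1 (23 wells) and 100% of 21 at sham day 14 (19 wells).

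Among wells with at least 10 heavy chain UMIs, Myh7 was the more abundant heavy chain in 3. An IR day 14 well of replicate 3 held 30 Myh7 and 7 Myh6 UMIs (81.1%), another of that plate 30 and 13 (69.8%), and an IR day 3 well of replicate 7 held 9 and 8 (52.9%). The first 2 wells also held 20 and 21 UMIs of Myl2 and 20 and 10 of Myl3, the ventricular light chains, and 70.2% and 57.1% mitochondrial tags. IR day 14 replicate 3 alone supplied 18 of the 30 wells with a share of at least 10%, against 9 in replicate 1 and 3 in replicate 2.

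**Figure D5:**
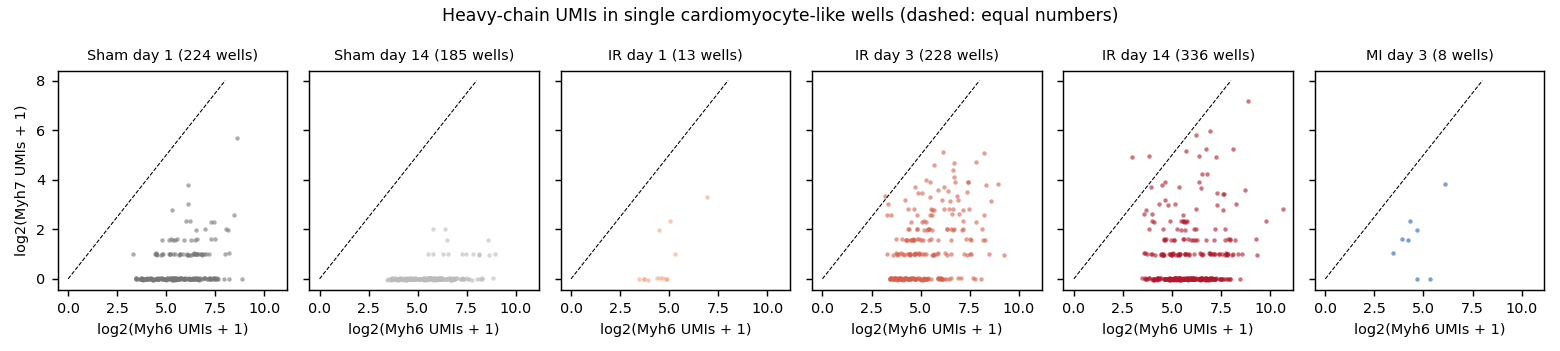
Myh7 against Myh6 UMIs in single cardiomyocyte-like wells with at least 10 heavy chain UMIs, 1 panel per group, both axes as log2(UMIs + 1) with a small random shift to separate points, and a dashed line at equal numbers. Nearly all wells lie under the line, with 3 above it in the IR panels of days 3 and 14.

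Myh7 shares also varied between the 4 cardiomyocyte clusters, which were made without the 7 genes. In cluster 0 the share was 0.849% of heavy chain UMIs at sham day 1, 0.261% at sham day 14, 5.08% at IR day 3 and 4.17% at IR day 14. In cluster 1 it was 0.729%, 0.0464%, 4.62% and 1.94% in the same order. In these 2 clusters the IR shares of days 3 and 14 were above both sham shares. They stayed above without the well richest in Myh7 of each group, at 3.33% and 2.63% in cluster 0 and 4.15% and 1.60% in cluster 1, against at most 0.644% in sham. Cluster 12 had 2.28% at sham day 1, 0.306% at sham day 14, 2.07% at IR day 3 and 1.27% at IR day 14, but 1 well held 51 of its 76 Myh7 UMIs at sham day 1 and another 37 of 73 at IR day 14. Without the richest well of each group its shares were 0.863%, 0.268%, 1.83% and 0.663%, so that IR day 3 lay above both sham shares and IR day 14 above that of sham day 14 alone. In cluster 4 it was 1.05% at sham day 1 (5 wells), 0% at sham day 14 (2 wells), 4.17% at IR day 1, 5.62% at IR day 3, 16.9% at IR day 14 and 9.41% in MI. Myh6 stood at 6723 CPM in cluster 4 and at 20729 and 19745 CPM in clusters 0 and 1. These are pooled wells with no test.

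Myh7b, the slow-type heavy chain gene that hosts miR-499, had no UMI in any cardiomyocyte-like well at IR day 1 or in MI. It measured 75.4, 209, 83.1 and 209 CPM in the sham day 1 plates and 187, 37.8, 182, 24.6 and 146 CPM in those of sham day 14. The IR day 3 plates measured 161, 33.8, 18.5, 82.4 and 39.8 CPM, where the highest value is 1 UMI of 6209, and the IR day 14 plates 87.0, 170.3 and 159 CPM. Day 14 of IR lay within the sham range.

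From pooled wells, with 3 UMIs as the limit for a count of 0, Myh7b was at least 4.28-fold lower at IR day 1 than at sham day 1 (0 against 109 UMIs), and at least 9.70-fold lower in MI than in sham (0 against 189 UMIs). The adjusted p by edgeR was 0.0019 and 3.3e-05. At IR day 3 it was 3.58-fold lower than in sham (log2 −1.84 ± 0.41, adjusted p = 8.9e-04), and at day 14 of IR 3.67-fold higher than at day 3 (log2 1.88 ± 0.45, adjusted p = 0.0040). The call at IR day 1 was lost with at least 10 wells a plate (adjusted p = 0.075) or wells of at least 2000 UMIs (0.115), that at IR day 3 without wells carrying other markers (0.070), and that between IR days with DESeq2 (0.171). In MI it was at least 2.86-fold lower than in IR of day 3 (adjusted p = 0.026, lost without MI replicate 2 at 0.281 or MI replicate 3 at 0.153). The day 14 groups differed by 0.22 ± 0.40 (adjusted p = 0.999) and the sham days by −0.37 ± 0.40 (adjusted p = 0.834).

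Most Myh7b UMIs came from 1 cluster of wells. Cluster 12, 108 wells with a median of 5859.5 UMIs, held 353 of the 416 Myh7b UMIs of the class (84.9%), at 423 CPM and in 66.7% of its wells. Clusters 0 and 1 had 14.2 and 27.9 CPM, and cluster 4, with 225 wells, had 0 UMIs. By group, cluster 12 held 37 wells from sham day 1, 23 from sham day 14, 20 from IR day 3 and 25 from IR day 14, but 3 from IR day 1 and 0 from MI.

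Myl2, the regulatory light chain, was not called in any of the 7 comparisons as fitted here. With plates of 2 or more wells included, it was called lower in MI against sham (log2 −1.05, adjusted p = 0.011). It measured 8673, 8543, 7635 and 6698 CPM at sham day 1, and between 5103 and 13962 CPM at sham day 14 (9128 ± 3500.0 SD, n = 5). It measured 8252, 5756 and 5083 CPM at IR day 1, 3715 to 9987 CPM at IR day 3 (7201 ± 2291, n = 5), 12027, 9106 and 8683 CPM at IR day 14, and 8334 and 10275 CPM in MI. In each of the 7 comparisons the groups overlapped. Log2 differences ran from −0.93 ± 0.45 (IR day 1 against sham, adjusted p = 0.162) to 0.90 ± 0.41 (IR day 14 against IR day 3, adjusted p = 0.283), and the MI difference from sham was −0.62 ± 0.46 (adjusted p = 0.304). The IR day 1 value was −0.36 relative to the median gene at −0.57, and other settings gave −1.61 to −0.23.

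Myl3, the essential light chain, was lower at IR day 1 and in MI. It measured 5128, 4704, 5036 and 4187 CPM at sham day 1 and 4100.2 to 8002 CPM at sham day 14 (5677 ± 1525, n = 5). It measured 2281, 3095 and 2621 CPM at IR day 1 and 3268 and 3689 CPM in MI, below every sham plate. IR day 3 ran from 2700.2 to 9663 CPM (5458 ± 2717, n = 5) and IR day 14 held 6901, 5695 and 4984 CPM, both overlapping sham.

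The Myl3 difference was −1.47 ± 0.43 at IR day 1 (adjusted p = 0.014), and −0.90 relative to the median gene. It did not pass with another scaling of the libraries (RLE, −0.80, adjusted p = 0.111), nor without any of IR day 1 replicate 1 or 2 (0.063 and 0.064) or sham day 1 replicate 1 or 3 (0.062 and 0.056). The 2 IR day 1 plates of only 2 wells each, left out of the test, had 11561 and 11401 CPM. In MI the difference was −1.32 ± 0.46 (adjusted p = 0.018), and the call was lost in 8 of the 11 cases in which 1 plate was left out. These were MI replicate 2 or 3 (adjusted p = 0.314 and 0.428), sham day 14 replicate 1, 5 or 8 (0.087, 0.066 and 0.073) and sham day 1 replicate 1, 2 or 3 (0.079, 0.069 and 0.078). The other 5 comparisons of Myl3 were not called (adjusted p 0.225 to 0.999).

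Myl7 and Myl4, the atrial light chains, were close to absent from the cardiomyocyte-like wells, and both failed the filter on low counts. Myl7 had 6 UMIs, all in 1 well of sham day 14 replicate 1, which also held 4 of Myl4 and 27 of Myl2. Myl4 had 23 UMIs in 4 wells, of which 17 lay in a single well of sham day 14 replicate 5, beside 63 UMIs of Myl3 and 21 of the atrial marker Stard10. In 4 of the 6 groups neither gene had a UMI, and at IR day 14 there was 1 of Myl4 in 1413819 UMIs. Plate shares of Myl7 against Myl2 reached 0.219% and those of Myl4 against Myl3 1.32%, and all 14 exact permutation tests had an adjusted p of 1.00. Of 10 other atrial markers, Sln and Bmp10 had 0 UMIs in these wells in all 6 groups, and the others were found at low counts in some or all of them. Stard10 was found in every group, from 6.22 CPM at IR day 3 to 48.9 CPM at sham day 14 and 69.6 CPM in MI, and Nr2f2 reached 15.1 CPM at sham day 1. Dkk3 had 8 UMIs at IR day 3 and 7 at IR day 14, and Kcna5, Gja5, Nr2f1, Fgf12 and Mybphl had at most 7 UMIs in any group. At IR day 3, where Myh7 was higher, the count of 0 allows up to 2.33 CPM of either gene, and at IR day 14 it allows up to 2.12 CPM of Myl7.

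Across the 22 plate libraries, the genes most like each member (Pearson's r of log2 CPM over 2413 genes, a description across groups that differ in depth and class make-up) were found by the size of r alone. For Myh6 they were Hadha (r = 0.975) and Ogdh (0.970), mitochondrial enzymes of fatty acid oxidation and of the citric acid cycle, and Sgca (0.959), a sarcoglycan of the muscle membrane. For Myl3 they were Mb (0.957), myoglobin, Idh2 (0.936) and Ech1 (0.926). For Myl2 they were Tnni3 (0.953), cardiac troponin I, Bckdha (0.939) and Crat (0.889). Myh7b was most like D830015G02Rik (0.905), Ivns1abp (0.885) and Abca2 (0.872). For Myh7 the values were lower, and the nearest genes were Bgn (0.684), Fstl1 (0.634) and Col1a2 (0.627), and its r with Myh6 was 0.184, against 0.836 for Myh6 with Myl3. Col1a2 is a collagen I chain and Bgn a matrix proteoglycan. Summed fibroblast markers differed between these libraries as given above, and their part in these values was not tested.

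Within plates, over 1017 wells of 13 plates thinned to 1000 UMIs, the ventricular light chains had the highest mean correlation among the pairs of ventricular members. The mean Spearman correlation of Myl2 with Myl3 was 0.409 (0.0535 to 0.602, positive in 13 of 13 plates), without a p since wells of a plate share a library. For Myl2 with Myh6 it was −0.0339. For Myh7 with any gene it reached at most 0.163 (Akap2), followed by Nppa (0.162), Yipf7 (0.158), Myh6 (0.140) and Aplp2 (0.134), which in counts this sparse is too weak to read. Plates with few Myh7 wells weighed on these means. Over the 8 plates with at least 5 such wells they were 0.135 for Nppa, 0.0950 for Aplp2 and 0.0796 for Myh6. Yipf7 and Akap2 then stood at 0.0499 and 0.0457. For Myl4 and Myl7 only 2 wells and 1 well held the gene, so no values are given.

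The other genes of the contractile apparatus were grouped into 6 lists and counted by the same test. These lists were written with earlier results of these data known, so their counts are a description and no independent test. Set beside these counts, all genes tested were higher in 3.76% and lower in 9.02% at IR day 1, in 4.23% and 2.06% at IR day 3, in 14.0% and 21.9% in MI, and in 0.187% and 0.0234% at IR day 14. Of 11 tested thick filament partners, proteins that bind, fold or turn over sarcomeric myosin, 7 were lower and 0 higher at IR day 1 (median log2 −1.65, against −0.57 for all genes), among them Fbxo32 (−3.48), a muscle ubiquitin ligase, Mybpc3 (−2.49), the cardiac myosin-binding protein C, and Smyd1 (−2.41), a muscle methyltransferase. In MI 9 were lower (median −1.75, against −0.23), led by Ttn (−5.74), the giant filament of the sarcomere, Myom1 (−3.08) and Fbxo32 (−2.16). With RLE scaling 3 of the 11 were lower at IR day 1 (Fbxo32, Mybpc3 and Ttn, median −0.99, against 0.08) and 8 in MI. At IR day 3 only Myom2 was lower (−1.06), and at day 14 none of the 11 was called. Myom2 was higher at day 14 than at day 3 of IR (1.22).

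Of 7 tested genes of the fetal or stress programme outside the myosins, 4 were higher at IR day 1 (among them Xirp2 3.00, Nppb 2.57 and Nppa 2.32), 4 at IR day 3 (among them Ankrd1 1.55, Nppa 1.44 and Nppb 1.32), 3 in MI (Ankrd1 2.51, Enah 2.27 and Acta1 1.35) and 1 at IR day 14 (Nppa 3.11). Nppa, which encodes the atrial natriuretic peptide, and Myh7 were both called at IR day 14. Its level there was 5151 ± 5011 CPM (SD, n = 3) against 529 ± 637 CPM in sham (n = 5), so it varied widely between plates. Median changes of the list were 2.18, 1.17, 0.85 and 1.24 in that order, against −0.57, −0.02, −0.23 and 0.06 for all genes. At IR day 3, 3 of the 7 were called with RLE scaling and 1 (Ankrd1) with DESeq2. DESeq2 called 0 of the 7 at IR day 14, and at IR day 1 it called 4, without Nppa. With RLE scaling Nppa was called on both of these days.

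Of 6 other myosin genes tested, MI had 4 higher, led by Myl1 (3.19), a skeletal essential light chain, and Myl9 (2.39), a smooth muscle regulatory light chain, with Myh14 lower and without a UMI in the MI wells (median of the list 1.82, against −0.23 for all genes, of which 14.0% were higher). IR day 1 had Myh9 (2.53) and Myl6 (1.31) higher, which encode non-muscle chains, and Myh14 (−2.28) lower (median 0.76, against −0.57). Fibroblast markers in the same wells summed to 0 to 3530 CPM at IR day 1 and 476 to 2309 CPM in MI. The part of other cell classes in these myosin values was not tested. Of 8 thin filament genes, 3 were lower at IR day 1 (Tcap −2.37, Tnni3 −1.45 and Tnnt2 −1.29), with a median of −1.12 against −0.57 and 9.02% of all genes lower, and 0 elsewhere. With RLE scaling only Tcap was lower at IR day 1, Actc1 was higher at IR day 3 and 3 thin filament genes were higher in MI, and Myh14 was not called at IR day 1. Of 10 tested regulators of myosin genes, Thra, a thyroid hormone receptor, was lower at IR day 3 (−1.54) and higher at day 14 than at day 3 (1.65), calls not made by DESeq2 and, between the days, not with RLE, and Nkx2-5 (1.69) and Hopx (1.13) were higher in MI, or 2 of 10 beside 14.0% of all genes (median 0.18). Of 10 atrial markers only Stard10 could be tested, and it was higher in MI (1.99).

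The effect of IR at day 14, against sham of its day, minus its effect at day 1 was tested as a contrast of its own, chosen after seeing the data. It passed for Myh6, Myh7 and Myh7b and not for Myl2 and Myl3, with 6.52% of all genes called.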

How the data were processed

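The authors sorted living single cells into plates, counted UMIs of 6 bases (4096 sequences at most), and mapped reads with BWA to GRCm38/mm10, per the labels and methods. The deposited values are counts of UMIs per gene and well for 36 plates, and no value was other than a whole number. Members and gene lists were chosen with earlier results of these data known.

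Wells of at least 1000 nuclear UMIs were clustered without the 7 genes (scanpy 1.11.5, leidenalg 0.10.2, 2000 variable genes, 30 principal components, 15 neighbours, resolution 1) and named from markers, and no doublet caller was run. UMIs were summed over cardiomyocyte-like wells per plate (at least 5 wells). edgeR 4.0.16 in R 4.3.3 fitted all 6 groups (TMM, filterByExpr, glmQLFit and glmQLFTest). In simulated data for IR day 14 against sham day 14, this step recovered 33% of 2-fold and 96% of 4-fold changes (100 genes each, of 3628). Shares and wells were compared by exact permutation (scipy 1.17.1). Thinning drew 1000 UMIs per well. Alternatives included DESeq2 1.42.0, RLE scaling and other limits on wells. Intervals are exact binomial (95%) and, like the limit of 3 counts, cover counting error only.

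Named genes were the 7 members, up to 3 called genes of each list per comparison by size, the 3 genes most correlated with each member over libraries (mean of at least 50 CPM), and the 5 most correlated with Myh7, Myl4 and Myl7 within plates. Replicate numbers did not pair plates: deviations of 26 same-numbered pairs correlated between −0.077 and 0.132 (median −0.0040).

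Copies of wells across tables were found in other plates too: 17 and 6 wells of IR day 1 replicate 9 match replicates 5 and 8, and 16 wells of sham day 14 replicate 2 match IR day 3 replicate 6.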

Additional observations from a re-analysis of the deposited data

Results flagged for a closer look

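Myh7 stood at 378 CPM in the cardiomyocyte-like cells of sham day 1 replicate 3, far from the other 3 plates of that group (119 to 141 CPM). Of its 100 Myh7 UMIs, 51 came from 1 well of 19686 UMIs, and without that well the plate stood at 199.998 CPM. Myl4 stood at 107 CPM in sham day 14 replicate 5, where 17 of its UMIs came from 1 well, and Myl7 at 24.4 CPM in sham day 14 replicate 1, where all 6 UMIs came from 1 well. Dixon's test was run on 45 groups of values. Some of these were at 0 in every plate and could not be marked. A group with 1 plate above 0 and the others at 0, as for Myl7 here, is marked by construction. The usual rate by chance, about 1 group in 20, does not hold for counts this sparse.

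The effect of IR at day 14 minus its effect at day 1, each against sham of its own day, was tested as 1 contrast chosen after seeing the data (edgeR, 6.52% of genes called, median of all genes 0.65). It was 2.99 ± 0.68 SE for Myh6 (adjusted p = 0.0041), 5.14 ± 0.77 for Myh7 (adjusted p = 2.1e-06) and 8.20 ± 1.99 for Myh7b (adjusted p = 0.0075). The value for Myh7b is no bound, since IR day 1 had 0 UMIs. For Myl2 and Myl3 it was 1.1 ± 0.60 and 1.58 ± 0.57 (adjusted p = 0.264 and 0.071). Part of the Myh7 value lies in the sham groups, whose plates averaged 190.0 CPM at day 1 and 33.2 CPM at day 14.

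Outside the cardiomyocyte-like wells, Myl7 had 50 UMIs in 4 of the 132 fibroblast-like wells of MI (7.12 CPM) and 0 in those of every other group. Of these, 33 lay in 1 well of 177008 UMIs and 15 in another of 131296 UMIs. These wells held 349 and 296 UMIs of Col1a1, the collagen I chain, 0 and 1 of Myh6, and 0 and 1 of Myl2. In the 23 sham day 1 and 13 sham day 14 fibroblast-like wells a count of 0 allows up to 22.3 and 33.5 CPM, so a difference from sham was not detectable at this depth. In the 55 wells of IR day 1 and the 56 of IR day 3 it allows up to 3.00 and 6.01 CPM.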

How the results depend on the processing

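Of the member fold changes recomputed under other settings, 405 kept their direction and side of the threshold, 33 lost the call, 4 gained one and 23 changed sign; leaving out single plates gave 276, 30, 0 and 14. Myh7 at IR day 14 against sham kept its call in every setting run (log2 1.69 to 4.63). The causes of the changes were not tested.

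Genes called (of 4278 unless another number tested is given) moved by over 1.5 times as follows. DESeq2 called 1 gene (Myh7) at IR day 14 against sham, and split its calls into 291 higher and 387 lower in MI against IR (314 and 672 with edgeR), 18 and 99 between IR days (39 and 109) and 13 and 22 between sham days (3 and 31). Without a filter on low counts 414 were called at IR day 3 and 16 at IR day 14 against sham (of 15861). With at least 2 wells a plate, where only 2026 genes were tested, these were 148 and 2, with 77 between IR days 14 and 3 and 21 between sham days. As a percent of genes tested, 148 is 7.31% (6.29% in the fit reported), 77 is 3.80% (3.46%) and 21 is 1.04% (0.795%), so these shares did not fall with the counts. The 2 genes at IR day 14 are 0.0987% (0.210%), a share that did fall. IR day 1 had 251 of 5901 with at least 10 wells a plate and 171 of 4838 with wells of at least 2000 UMIs. Without wells carrying other markers there were 941 in MI against sham, 372 in MI against IR and 19 between sham days (of 4567). Against sham day 14 alone IR day 3 had 154. With the replicate block, whose numbers do not pair plates, there were 55 at IR day 3 against sham, 259 in MI against IR, 8 between IR days and 9 between sham days, and Myh7 stayed called at IR day 14 (3.32, adjusted p = 2.8e-04) and IR day 3 (1.60, 0.037). It was not called between sham days (adjusted p = 0.900 with the block), nor were Myh6 and Myh7b at IR day 3 (0.139 and 0.072), Myl3 at IR day 1 and in MI (0.053 and 0.105), Myh6 and Myh7 in MI against IR (0.092 and 0.138), or Myh6 and Myh7b between IR days (0.683 and 0.825). Calls also lost were Myh7 and Myh7b in MI against IR with DESeq2 (0.116 and 0.056), Myl3 at IR day 1 and Myh6 at IR day 3 and between IR days with at least 2 wells (0.112, 0.065 and 0.144), Myl3 at IR day 1 and Myh6 between IR days with wells of 2000 UMIs (0.086 and 0.059), Myh6 between IR days when the 7 genes entered the clustering (0.0503), Myl3 in MI with UMI collisions corrected (0.073), and Myh6 between IR days and Myh7b in MI against IR without the well richest in Myh7 of each plate (0.063 and 0.061). Myl3 in MI against IR was gained with DESeq2 (0.019) and at least 2 wells (0.040).

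Signs changed only among values not called. Without a filter Myl2 was −0.034 in MI against IR and −0.00053 between sham days. With the replicate block Myh7 was −0.16 in MI against sham, Myh7b −0.49 at IR day 14 and 0.41 between sham days, and Myl2 −0.17 between sham days. With at least 2 wells Myh7 was −0.23 in MI against sham, and Myl2 −0.30 in MI against IR and −0.030 between sham days. With at least 10 wells Myl2 was −0.0067 and Myl3 −0.035 at IR day 14, Myh6 0.13 between sham days, and the Myh7 share −0.748 between IR days (the same at 5 wells). With wells of 2000 UMIs Myl3 was −0.0048 at IR day 14, Myl2 −0.034 in MI against IR and Myh6 0.13 between sham days. Without wells carrying other markers Myh7 was −0.0016 in MI against sham, Myl2 −0.031 in MI against IR, Myl2 −0.065 and Myl3 −0.080 between sham days, the Myh7 share −0.0245 between IR days, and wells with Myh7 −3.15 points in MI against sham and −2.54 between IR days. With UMI collisions corrected the Myh7 share was −0.0269 between IR days. Without the well richest in Myh7 of each plate, a step that lowers Myh7 by construction, Myh7 was −0.68 in MI against sham, Myl2 −0.0024 between sham days, and the Myh7 share −0.693 points in MI against IR and −0.255 between IR days. Against sham day 1 alone Myh7b was −0.15 at IR day 14, Myh7 −0.85 in MI, the Myl4 share 0.0071 points at IR day 14, and wells with Myh7 −0.172 points in MI. Not thinned, wells with Myh7 differed by 17.6 points between MI and IR. Without copied wells they differed by −0.172 at IR day 1 and −0.636 in MI.

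Leaving out 1 plate at a time, genes called ranged from 242 to 515 at IR day 1, 154 to 289 at IR day 3, 505 to 1560 in MI, 2 to 11 at IR day 14, 154 to 1121 in MI against IR, 86 to 150 between IR days and 23 to 39 between sham days. The Myh7 share difference between IR days ranged from −0.916 to 0.672, and wells with Myh7 from −4.34 to 8.16 at IR day 1, 11.4 to 18.7 at IR day 3 (past the threshold without replicate 1, permutation p adjusted to 0.021), −3.14 to 9.36 in MI and −2.94 to 10.3 between IR days. Fold changes at IR day 14 ranged from −0.073 to 0.79 for Myh7b, −0.032 to 0.38 for Myl2 and −0.062 to 0.28 for Myl3. Myl2 in MI against IR ranged from −0.049 to 0.49, and between sham days Myh6 from −0.24 to 0.21, Myl2 from −0.13 to 0.21 and Myl3 from −0.068 to 0.21. At least 10 wells a plate left no MI plates, and without wells carrying other markers IR day 1 could not be compared.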

Other observations

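Heavy chain UMIs in wells of other classes, which the comparisons above did not use, gave a Myh7 share in each group. Pooled over all wells outside the cardiomyocyte-like class, Myh7 made up 0.699% of heavy chain UMIs at sham day 1 (19 Myh7 and 2701 Myh6 UMIs, exact 95% interval 0.421% to 1.09%), 0.419% at sham day 14 (0.209% to 0.749%), 3.02% at IR day 1 (1.62% to 5.10%), 6.01% at IR day 3 (4.95% to 7.22%), 2.11% at IR day 14 (1.57% to 2.76%) and 3.85% in MI (0.800% to 10.8%). In endothelial-like wells alone it was 0.658% at sham day 1, 0.174% at sham day 14, 12.3% at IR day 3 and 2.48% at IR day 14. The IR groups were above both sham groups here too, in wells named by other genes, with intervals that cover counting error only and no test over plates. They come from the same plates as the cardiomyocyte-like wells, and the source of these UMIs was not tested.

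The amount of Myh6 in wells of other classes also differed between groups. In endothelial-like wells it was 2824 CPM at sham day 1, 7361 CPM at sham day 14, 100.4 CPM at IR day 1, 1363 CPM at IR day 3 and 3177 CPM at IR day 14, but 1.25 CPM in MI (2 UMIs in 58 wells). In macrophage-like wells it was 320.4 CPM at sham day 1, 337 CPM at IR day 3 and 3.08 CPM in MI.

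Wells under 1000 UMIs, which entered no comparison, held further atrial chain UMIs. The best supplied was the same well of sham day 14 replicates 2 and 7, with 8 and 9 UMIs of Myl4 and 11 and 11 of Myl7 in the 2 tables, 10 and 16 of Myh6, and 0 of Myl2 and Myl3, at 768 and 771 UMIs.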
